A study of Homo sapiens with 9 samples.

Results

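The mitotic kinesins examined here are 10 genes taken by name: KIF11, KIF15, KIF2C, KIF18A, KIF22, KIF4A, KIF20A, KIF20B, KIF23 and KIF14. All 10 are among the 27615 genes of the longest list as used here. KIF4A, KIF15 and KIF18A are not analysed here for rimonabant replicate 1, whose list as used here ends earlier, and the other 7 have a value in all 9 libraries. The RNA came from MDA-MB-231, an established triple-negative breast cancer line, so every value describes a single line. Cells received vehicle (DMSO), rimonabant or TXX-1-10, and 3 libraries were sequenced per treatment. Rimonabant blocks CB1, a cannabinoid receptor, and TXX-1-10 was developed from rimonabant. The dose and duration for the sequenced cells, and whether the libraries came from separate cultures, are not given in the sources used here. P-values therefore measure the spread between these libraries, which may be technical.

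Kinesins are motor proteins that hydrolyse ATP to move along microtubules or to shorten them. Mitotic kinesins push spindle poles apart, place chromosomes at the spindle equator and build the central spindle on which the cleavage furrow is set. Most are made from genes transcribed late in the cell cycle, and many such genes carry a cell cycle genes homology region (CHR) and CCAAT boxes close to the start site.

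Promoter windows of all 10 genes were found in RefSeq (GRCh38.p14), each reaching from 250 bases before to 50 bases after an annotated start site. The stretch from 100 bases before to 10 bases after the start is printed for KIF20A, the member furthest below vehicle under both compounds, and for 5 of the members in which a CCAAT box and a CHR hexamer lie close together. Capitals mark CCAAT (read as ATTGG on the other strand), the hexamer TTTGAA (read as TTCAAA on the other strand) and the palindrome TTCGAA. The windows are chr5:138179012-138179121 (+ strand) for KIF20A, chr10:92593030-92593139 (+) for KIF11, chr15:69414249-69414358 (+) for KIF23, chrX:70290004-70290113 (+) for KIF4A, chr11:28108147-28108256 (- strand) for KIF18A and chr16:29790651-29790760 (+) for KIF22.
KIF20A: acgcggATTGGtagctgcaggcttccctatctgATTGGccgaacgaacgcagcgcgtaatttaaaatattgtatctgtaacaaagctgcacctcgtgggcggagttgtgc
KIF11: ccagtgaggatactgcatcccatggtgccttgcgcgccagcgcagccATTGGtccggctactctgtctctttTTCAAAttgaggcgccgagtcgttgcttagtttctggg
KIF23: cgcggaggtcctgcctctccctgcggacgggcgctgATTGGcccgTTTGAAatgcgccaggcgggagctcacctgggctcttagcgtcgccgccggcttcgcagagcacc
KIF4A: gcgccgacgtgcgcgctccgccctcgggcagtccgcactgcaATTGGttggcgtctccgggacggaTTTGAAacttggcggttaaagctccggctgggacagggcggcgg
KIF18A: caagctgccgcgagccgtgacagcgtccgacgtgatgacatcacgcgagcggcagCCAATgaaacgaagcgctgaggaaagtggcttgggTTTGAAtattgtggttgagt
KIF22: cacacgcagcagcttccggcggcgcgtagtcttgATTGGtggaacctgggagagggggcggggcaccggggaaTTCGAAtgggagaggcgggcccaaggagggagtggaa

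TTTGAA was present on either strand in 7 of the 10 kinesin promoters, against 15.2% of the 35116 promoter windows in the table. KIF22 held the variant TTCGAA in its place, which occurs in 1.45% of all windows. KIF20A and KIF2C held neither hexamer. CCAAT was present in 8 of 10, against 34.6% of all windows, and was missing from KIF15 and KIF2C. KIF20A and KIF20B each held 2 CCAAT matches. The longer GATTGG, which contains a CCAAT match read on the other strand, was present in 4 of 10 against 15.1%. CCAAT and a hexamer occurred together in 7 of 10, against 6.38% of all windows. Both motifs started between -100 and +10 in 6 of 10, against 1.3%, a span chosen after the sequences had been seen. In KIF11 the first base of CCAAT lay at -53 and that of the hexamer at -28, in KIF4A at -58 and -34, and in KIF22 at -66 and -27. KIF20A instead held TTTAAA, starting at -41. This letter sequence was searched after the windows had been seen, and occurred in 4 of 10 against 12.2%. These are letter matches in a fixed window and not binding sites.

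**Figure D1:**
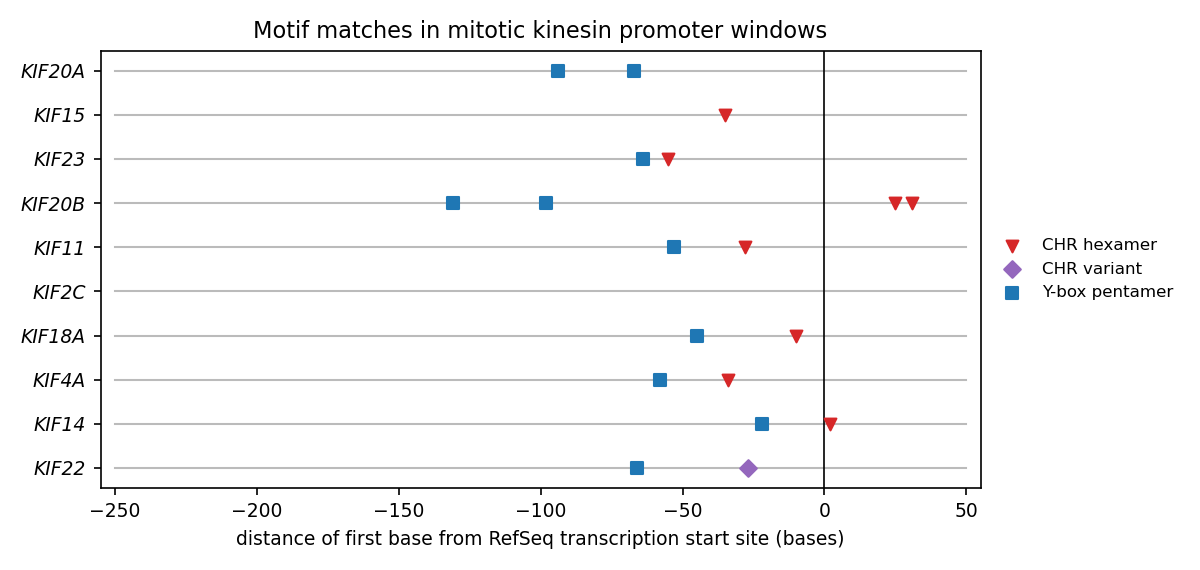
Positions of motif matches in the promoter window of each mitotic kinesin, as the distance of the first base from the RefSeq start site in bases (x axis), with genes ordered by their log2 fold change under TXX-1-10. Triangles are TTTGAA (CHR hexamer), the diamond is TTCGAA (CHR variant) and squares are CCAAT (Y-box pentamer). KIF2C has no mark, KIF20A has only squares and KIF15 has only a triangle. KIF11, KIF23, KIF4A, KIF14, KIF18A, KIF20B and KIF22 each have a square upstream of a hexamer.

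The same letters were counted in the other lists of genes as a description. A gene counted if any of its windows held the match, while the shares of all windows count each window. Among 6 other mitotic kinesins, 3 (50%) held a hexamer and 3 (50%) CCAAT. Among 22 transport and other kinesins with a window, 2 (9.09%) held a hexamer and 7 (31.8%) CCAAT. Among 20 dynein and dynactin genes, 1 (5%) held a hexamer and 11 (55%) CCAAT. Among 17 partners and regulators of the mitotic kinesins, 11 (64.7%) held a hexamer and 14 (82.4%) CCAAT. Among 15 transcriptional regulators of late cell cycle genes, 6 (40%) held a hexamer and 8 (53.3%) CCAAT.

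Reads were counted over the exons of each gene, and levels are given in FPKM, fragments per kilobase of exon scaled by the library total, as deposited. In GRCh38 KIF11 lies on chromosome 10 from 92593286 to 92655395, KIF15 on chromosome 3 from 44761717 to 44873376, KIF2C on chromosome 1 from 44739818 to 44767767 and KIF18A on chromosome 11 from 28020620 to 28108308. KIF22 lies on chromosome 16 from 29790719 to 29805385, KIF4A on X from 70290090 to 70420832 and KIF20A on chromosome 5 from 138178719 to 138187715. KIF20B lies on chromosome 10 from 89701610 to 89774939, KIF23 on chromosome 15 from 69414246 to 69448427 and KIF14 on chromosome 1 from 200551497 to 200620734. Strand use in counting is not given in the sources used here, so reads of overlapping genes on opposite strands cannot be told apart. Exons of KIF22 share 561 bases, 13% of its exon length, with the antisense gene AC009133.4. The shared part was at most 4.8% in KIF2C (AL592166.1), KIF23 (AC027237.3), KIF4A (PDZD11) and KIF18A (METTL15), and KIF20A shared 3.34% with BRD8 and 1.72% with CDC23. KIF11, KIF14, KIF15 and KIF20B shared no exon base.

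The total to which the FPKM values were scaled ran from 17078370 to 17245379 for vehicle, 17477838 to 18813662 for rimonabant and 18394759 to 19277808 for TXX-1-10. The mesenchymal markers VIM (224 to 329 FPKM), AXL (124 to 221), MSN (239 to 272) and CD44 (27.4 to 48.2) were abundant in all 9 libraries. ESR1 reached 0.0314 FPKM and PGR 0.0459 in the 4 libraries that list each of them, and CDH1 was listed at 0 in 4. GATA3 reached 1.45 FPKM, EPCAM 5.37 and ERBB2 9.52. Rimonabant replicate 1 and TXX-1-10 replicate 3 stood apart from their groups, with lower relative counts on longer genes (Spearman correlation of -0.69 across genes in both). The 10 kinesins, of 3646 to 7277 exon bases, lie on both sides of the median of 5771 bases of the tested genes. Counts without both libraries are given for the 10 kinesins and for each list.

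In vehicle-treated cells KIF20A had the highest level of the 10, 43.3 ± 1.91 FPKM (mean ± SD, n = 3 here and for each mean that follows unless stated). KIF22 followed at 33.2 ± 0.486, KIF11 at 29.4 ± 1.21, KIF2C at 26.1 ± 1.49, KIF23 at 20.4 ± 0.682 and KIF20B at 15.7 ± 0.548. The libraries of these neighbours did not overlap. KIF4A (13.8 ± 0.446) and KIF14 (13.5 ± 1.004) overlapped, as did KIF15 (10.9 ± 0.480) and KIF18A (9.34 ± 0.991).

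Under rimonabant KIF20A moved from the first to the fourth place, with a mean of 19.4 ± 0.797 FPKM. It overlapped with KIF2C (20.4 ± 1.23), and KIF22 (26.9 ± 1.77) and KIF11 (26.6 ± 0.797) shared the top of the order. Under TXX-1-10 KIF22 alone stood at the top with 12.6 ± 0.617 FPKM. KIF11 (7.55 ± 0.198), KIF2C (7.28 ± 0.718) and KIF20A (6.56 ± 0.303) came next, each overlapping with its neighbour. KIF15 was the lowest at 2.46 ± 0.174, overlapping with KIF18A at 2.77 ± 0.183. Summed over the 7 kinesins present in all lists, the level was 178 to 188 FPKM in vehicle, 128 to 131 in rimonabant and 45.1 to 47.7 in TXX-1-10 libraries.

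**Figure D2:**
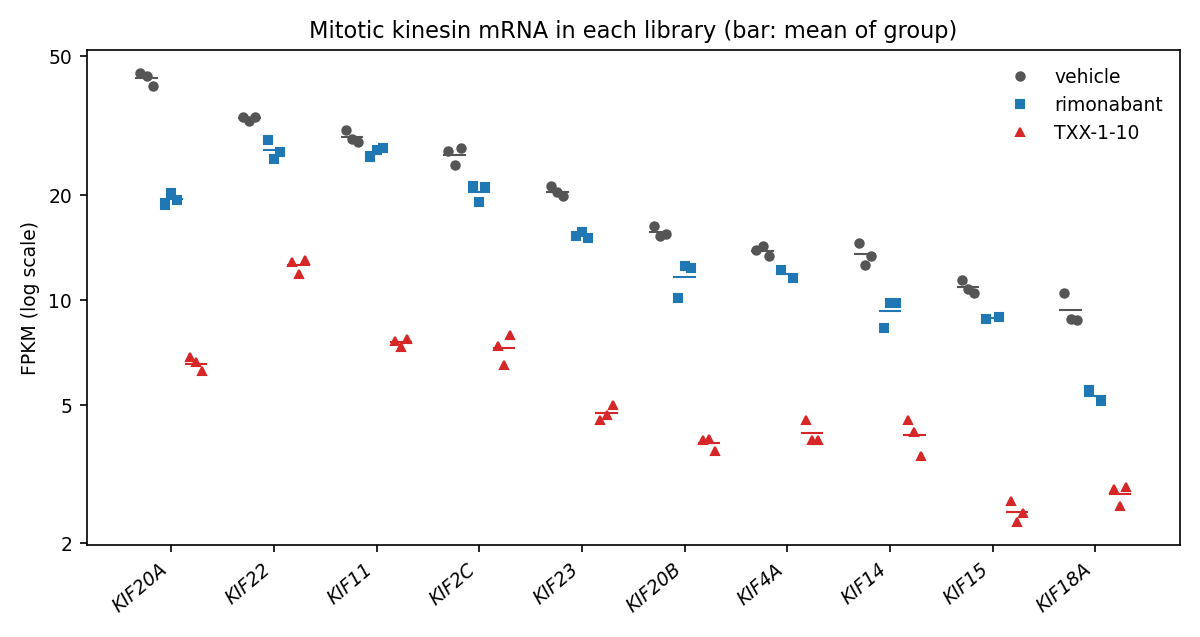
FPKM of the 10 mitotic kinesins in each library on a log scale (y axis), with 1 point per library coloured by treatment and a short bar at the group mean. For every gene the 3 treatments occupy separate ranges, from 41.2 to 44.9 down to 6.23 to 6.83 FPKM for KIF20A, and rimonabant has 2 points for KIF4A, KIF15 and KIF18A.

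TXX-1-10 was compared with vehicle to ask which transcripts respond to the derivative. All 10 mitotic kinesins were lower, with log2 fold changes of -2.72 for KIF20A to -1.40 for KIF22 and a median of -1.90. The rule for a changed gene was a log2 fold change of 1 or more in either direction with an adjusted p under 0.05 (edgeR quasi-likelihood test, Benjamini-Hochberg adjustment over all tested genes). By this rule 10 of 10 fell, against 7.60% of the 4236 genes tested in all 9 libraries and 7.39% of the 9369 tested in the 8 libraries that list KIF4A, KIF15 and KIF18A. The median of all tested genes was -0.09 in 9 libraries and -0.04 in 8. No TXX-1-10 library overlapped with a vehicle library for any of the 10. This also held, in the lower direction, for 46.3% of genes in 9 libraries and 41.2% in 8. The count stayed at 10, with a median of -1.94, without rimonabant replicate 1 and TXX-1-10 replicate 3. In RNA from a whole culture, fewer dividing cells and less kinesin mRNA per dividing cell cannot be told apart.

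The motors that set up the bipolar spindle are KIF11, also known as Eg5, which slides antiparallel microtubules apart, and KIF15, which can take part in the same task. KIF11 had 30.8, 28.97 and 28.4 FPKM in vehicle replicates 1 to 3 and, with TXX-1-10, 7.62, 7.33 and 7.70. Its log2 fold change was -1.96 (SE 0.05, adjusted p = 6.62e-10 by edgeR). KIF15 had 11.4, 10.7 and 10.5 FPKM in vehicle and 2.64, 2.29 and 2.45 with the derivative, a log2 fold change of -2.14 (SE 0.07, adjusted p = 1.04e-10 by edgeR). For both genes every TXX-1-10 library lay far under the lowest vehicle library, and the replicates of a treatment stayed close together.

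A second group acts on chromosomes and microtubule ends. KIF2C, also called MCAK, removes tubulin from microtubule ends and helps correct faulty kinetochore attachments. KIF2C had 26.7, 24.4 and 27.2 FPKM in vehicle and 7.37, 6.52 and 7.94 under TXX-1-10, with a log2 fold change of -1.84 (SE 0.08). KIF18A dampens the oscillation of chromosomes at the spindle equator. KIF18A had 10.5, 8.79 and 8.74 FPKM in vehicle and 2.86, 2.56 and 2.90 under TXX-1-10, with a log2 fold change of -1.75 (SE 0.09). The chromokinesins KIF22 and KIF4A bind chromosome arms, and KIF4A also limits the length of central spindle microtubules. KIF22 had 33.4, 32.7 and 33.6 FPKM in vehicle and 12.8, 11.9 and 13.0 under TXX-1-10. At -1.40 (SE 0.06, 95% interval -1.54 to -1.27) its log2 fold change was the smallest of the 10, and its interval lay above those of the other 9 except KIF14 (-1.95 to -1.50). KIF4A had 13.9, 14.3 and 13.4 FPKM in vehicle and 4.52, 3.95 and 3.96 with the derivative, a log2 fold change of -1.74 (SE 0.07). The near-identical gene KIF4B, whose reads could be exchanged with those of KIF4A, had 5 counts in vehicle replicate 1, 4 in rimonabant replicate 3, and 0 and 1 in TXX-1-10 replicates 2 and 3.

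The remaining members work in anaphase and cytokinesis. KIF20A, also called MKLP2, carries the chromosomal passenger complex to the central spindle. KIF20A had 44.9, 43.9 and 41.2 FPKM in vehicle, from 3032, 2996 and 2807 counts, and 6.83, 6.62 and 6.23 under TXX-1-10, from 521, 482 and 454 counts. The log2 fold change of KIF20A of -2.72 (SE 0.06, 95% interval -2.86 to -2.59, adjusted p = 3.35e-10 by edgeR) corresponds to a level 6.60-fold lower, and its interval did not meet that of any other member. KIF23, or MKLP1, is the motor subunit of the centralspindlin complex. KIF23 had 21.2, 20.4 and 19.8 FPKM in vehicle and 4.50, 4.67 and 4.999 under TXX-1-10, with a log2 fold change of -2.11 (SE 0.06). KIF20B, also known as MPP1, acts late in cytokinesis. KIF20B had 16.3, 15.2 and 15.4 FPKM in vehicle and 3.97, 3.98 and 3.69 under TXX-1-10, with a log2 fold change of -2.01 (SE 0.08). KIF14 recruits citron kinase to the midbody. KIF14 had 14.5, 12.6 and 13.4 FPKM in vehicle and 4.52, 4.16 and 3.57 under TXX-1-10, with a log2 fold change of -1.72 (SE 0.10) and the largest adjusted p of the 10, 1.31e-07 by edgeR.

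Rimonabant was compared with the same 3 vehicle libraries, so this comparison and that of TXX-1-10 with vehicle are not independent. All 10 kinesins were lower by adjusted p, but only KIF20A passed the fold threshold as well. By adjusted p alone 25.2% of genes were lower in 9 libraries and 22.8% in 8. By the full rule 0.614% and 0.758% were. The median log2 fold change of the 10 was -0.39, against -0.02 over all genes of the 9 libraries and 0.003 over those of the 8. Rimonabant and vehicle libraries did not overlap for 10 of 10, which also held, in the lower direction, for 31.5% of genes in 9 libraries and 35.8% in 8. Without both libraries that stood apart, the count stayed at 1 and the median was -0.37.

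KIF20A had 18.7, 20.3 and 19.4 FPKM under rimonabant, from 1291, 1508 and 1419 counts. Its log2 fold change was -1.16 (SE 0.06, 95% interval -1.28 to -1.03, adjusted p = 4.17e-07 by edgeR), and it passed the rule in all 21 alternatives as well. KIF18A came next, with 5.49 and 5.12 FPKM in rimonabant replicates 2 and 3. Its log2 fold change was -0.82 (95% interval -1.03 to -0.60, adjusted p = 4.75e-05 by edgeR), short of the fold threshold. The 95% intervals of KIF20A and KIF18A nearly touched, and those of the other 8 members ended well short of KIF20A. KIF18A was fitted on 8 libraries, where KIF20A had a smaller change of -1.13 (SE 0.06), and the difference between the 2 genes was not tested.

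The cytokinesis motors KIF14, KIF20B and KIF23 were lower by a smaller amount. KIF14 had 8.28, 9.79 and 9.78 FPKM under rimonabant (log2 fold change -0.54, adjusted p = 0.00119 by edgeR). KIF20B had 10.1, 12.5 and 12.3 (-0.42, adjusted p = 0.00155). KIF23 had 15.2, 15.7 and 15.0 (-0.42, adjusted p = 0.00013). In KIF14 and KIF20B the lowest value was that of replicate 1, which stood apart by its length trend.

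Of the chromosome motors, KIF2C had 21.2, 19.0 and 21.1 FPKM under rimonabant (log2 fold change -0.35, adjusted p = 0.00379 by edgeR). KIF22 had 28.8, 25.3 and 26.5 (-0.31, adjusted p = 0.00171). KIF4A had 12.1 and 11.5 in replicates 2 and 3 (-0.23, adjusted p = 0.0212). Of the spindle bipolarity motors, KIF15 had 8.78 and 8.95 FPKM (-0.29, adjusted p = 0.00534 by edgeR), and KIF11 had 25.7, 26.9 and 27.2 (-0.14, 95% interval -0.25 to -0.03, adjusted p = 0.0332). For KIF11, KIF4A and KIF15 the call by adjusted p was not stable over the alternatives, while KIF2C and KIF22 stayed under 0.05. Adjusted p ranged from 0.0209 to 0.126 for KIF11. Leaving out vehicle replicate 1 took KIF11 and KIF4A past 0.05, which left 8 of 10. Without rimonabant replicate 2 or 3, KIF4A and KIF15 have 1 rimonabant library, so their p-values are not given there.

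The compounds were then compared directly for each of the 10 genes, with adjustment over all tested genes. Since the doses are not given in the sources used here, the comparison holds for the treatments as they were applied and not for equal doses. By adjusted p alone TXX-1-10 gave the lower level for 10 of 10 kinesins, as for 39.4% of genes in 9 libraries and 33.9% in 8. The rule was passed by 9 of 10, against 4.34% of all genes in 9 libraries and 4.31% in 8. The median was -1.54 against -0.08 and -0.04 for all genes, and no libraries overlapped for any of the 10. The same held, in the lower direction, for 38.8% of genes in 9 libraries and 39.4% in 8. Without both libraries that stood apart, 9 passed and the median was -1.54.

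KIF15 (log2 fold change -1.85, SE 0.08) and KIF11 (-1.82, SE 0.05) differed most between the compounds. KIF23 followed at -1.70 (SE 0.05), KIF20B at -1.59 (SE 0.08), KIF20A at -1.57 (SE 0.06), KIF4A at -1.51 (SE 0.08) and KIF2C at -1.49 (SE 0.08). KIF14 had -1.18 (SE 0.10, adjusted p = 4.05e-06 by edgeR) and KIF22 -1.10 (SE 0.06, adjusted p = 1.59e-07), which came to -0.99 once a trend on gene length was removed. KIF18A had -0.94 (95% interval -1.16 to -0.71, adjusted p = 9.86e-06 by edgeR), so it was lower under TXX-1-10 without passing the fold threshold. Its interval holds differences on both sides of that threshold, as do those of KIF14 (-1.41 to -0.96) and KIF22 (-1.23 to -0.97).

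**Figure D3:**
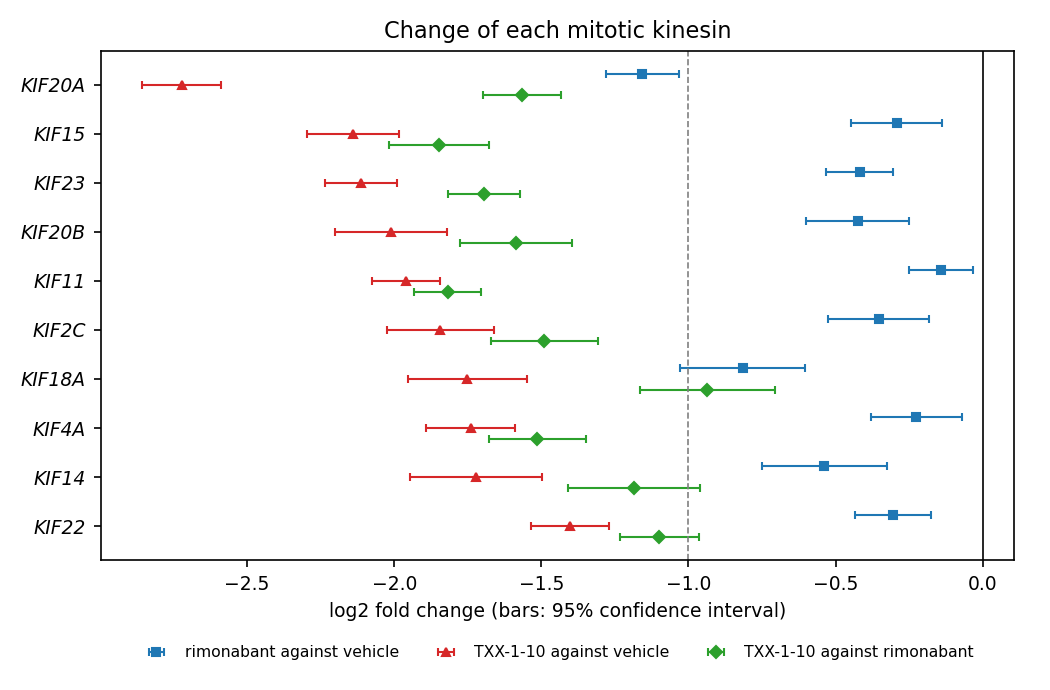
Log2 fold change of each mitotic kinesin (x axis) in the 3 comparisons, with bars for the 95% confidence interval and a dashed line at the fold threshold of -1. KIF20A is the only gene past the line for rimonabant against vehicle (-1.16), all 10 are past it for TXX-1-10 against vehicle, and KIF18A at -0.94 is the only one short of it between the compounds.

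Levels relative to KIF11 within the same library do not depend on the library total. KIF11 was taken as the denominator with its values known, as the member nearest to vehicle under rimonabant. The ratio of KIF20A to KIF11 was 1.45 to 1.52 in vehicle libraries, 0.710 to 0.752 with rimonabant and 0.809 to 0.904 under TXX-1-10. KIF20A was thus above KIF11 in every vehicle library and under it in every treated library. The ratio of KIF22 to KIF11 was 1.09 to 1.18 in vehicle, 0.941 to 1.12 under rimonabant, overlapping with vehicle, and 1.62 to 1.69 under TXX-1-10.

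KIF18A went in opposite directions relative to KIF11, from 0.304 to 0.341 in vehicle to 0.188 to 0.204 in the 2 rimonabant libraries and 0.350 to 0.376 under TXX-1-10. The ratio of KIF15 to KIF11 had the group means that lay closest together of the 9 ratios, 0.369 in vehicle, 0.327 with rimonabant and 0.326 with TXX-1-10. KIF23 gave 0.688 to 0.703, 0.551 to 0.592 and 0.591 to 0.649 in the same order, and its ranges under the compounds overlapped at their ends. These ranges are a description and were not tested.

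**Figure D4:**
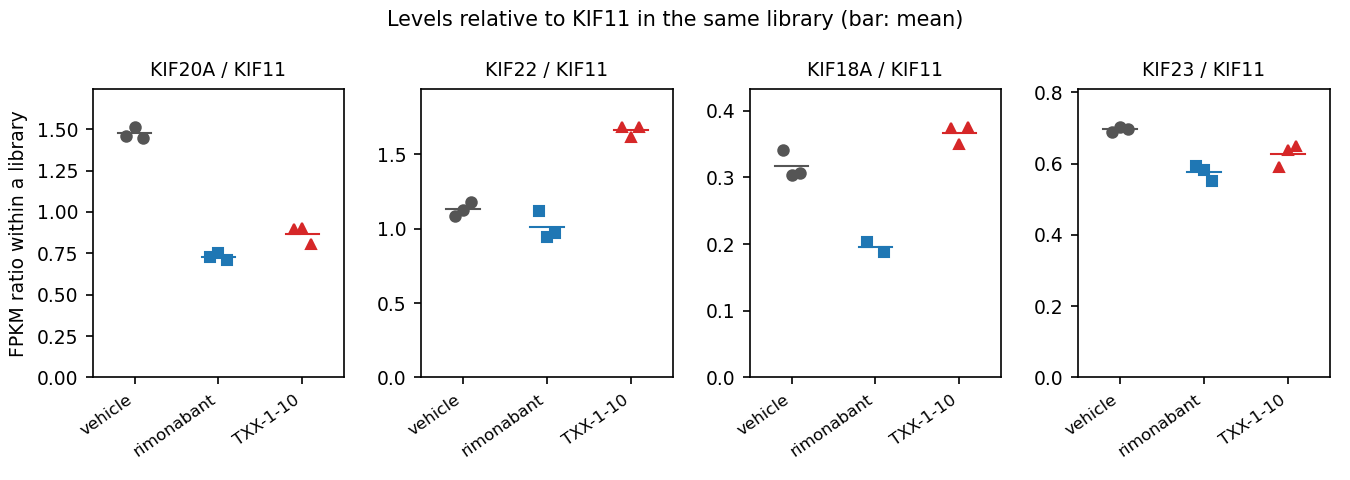
FPKM of KIF20A, KIF22, KIF18A and KIF23 divided by that of KIF11 in the same library (y axis, starting at 0), with 1 point per library and a bar at the mean of each treatment. KIF20A is above 1.4 in vehicle and under 1 with either compound, while KIF22 is above 1.6 only in the TXX-1-10 libraries.

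Other mitotic kinesins were read from a separate list of 6 genes. Of the 4 that were tested, 3 fell under TXX-1-10, where 7.60% of all genes fell in 9 libraries and 7.39% in 8. CENPE, which tethers kinetochores to microtubules, had a log2 fold change of -2.23 and went from 8.54 to 9.73 FPKM in vehicle to 1.70 to 2.08. KIF18B had -2.08 and KIFC1, a minus-end motor that gathers spindle poles, -1.86. KIF2A, which shortens microtubules in interphase as well as in mitosis, had -0.53 (adjusted p = 0.000123 by edgeR) and 10.6 to 12.4 FPKM against 16.2 to 18.2 in vehicle. Under rimonabant 0 of 4 passed the rule with edgeR, TMM scaling or DESeq2, against 0.614% of all genes lower in 9 libraries and 0.758% in 8. An unadjusted p under 0.05 was reached by 3 of the 4, and by 55.6% of all genes in 9 libraries and 53.7% in 8. Both counts were the same, 3 and 0, without the libraries that stood apart. KIF2A had -0.45 there (adjusted p = 0.000976 by edgeR), and between the compounds its log2 difference was -0.08 (95% interval -0.25 to 0.10, adjusted p = 0.408).

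Of 20 tested partners and regulators of these motors, 16 fell under TXX-1-10 and 0 rose, against 7.60% and 4.20% of all genes in 9 libraries and 7.39% and 5.28% in 8, and the median was -1.57. With TMM, DESeq2 or a length correction 14 fell, without AURKB and NEK6, and 15 fell without both libraries that stood apart. Under rimonabant 1 of 20 passed the rule, PLK1, also without these libraries, against 0.614% of all genes lower in 9 libraries and 0.758% in 8, and the median was -0.44. PLK1 is a kinase that binds KIF20A at the central spindle. Its FPKM was 25.2 to 27.5 in vehicle, 10.8 to 12.1 with rimonabant and 5.23 to 5.39 under TXX-1-10. The log2 fold changes of PLK1 were -1.22 and -2.30, beside -1.16 and -2.72 for KIF20A.

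Centralspindlin joins KIF23 to RACGAP1, and RACGAP1 recruits ECT2, which helps set the cleavage furrow. In log2 fold change RACGAP1 stood at -1.77 with TXX-1-10 and -0.41 with rimonabant, and ECT2 at -1.37 and -0.43, beside -2.11 and -0.42 for KIF23. The cargo of KIF20A is the chromosomal passenger complex, of which CDCA8 had -1.998 and -0.54, INCENP -1.77 and -0.40, and BIRC5 -1.53 and -0.36. AURKB, its kinase, had -1.07 under TXX-1-10 and 0.18 under rimonabant (adjusted p = 0.0225 by edgeR). CIT, the citron kinase that binds KIF14, had -1.69 and -0.54. ANLN, a scaffold of the contractile ring, had -2.50 and -0.47, and DLGAP5, a spindle protein, had -2.35 and -0.67.

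TPX2, which binds KIF11 and KIF15 on the spindle, had -1.60 under TXX-1-10 and -0.44 under rimonabant. CDK1, which phosphorylates KIF11, had -1.90 under TXX-1-10 and -0.06 under rimonabant (adjusted p = 0.516 by edgeR), beside -1.96 and -0.14 for KIF11. The kinases NEK7 (0.26) and NEK9 (0.24) were higher under TXX-1-10 by adjusted p without passing the fold threshold, while NEK6, which phosphorylates KIF11, had -1.01. KIF1BP, a protein that binds KIF15 and KIF18A, had -0.23 and 0.19. PRC1, which bundles central spindle microtubules with KIF4A, was not tested. It had 66 and 85 counts in the vehicle libraries that list it, 48 and 51 with rimonabant and 32 and 27 with TXX-1-10.

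Kinesins of transport and other tasks, among them motors of vesicles and organelles, were counted in the same way. Of 19 tested, 1 fell and 2 rose under TXX-1-10, and the median was 0.23. Over all genes 7.60% fell and 4.20% rose in 9 libraries (11.8% in either direction), and 7.39% fell and 5.28% rose in 8 (12.7%). By adjusted p alone 4 of the 19 were lower and 12 higher, against 43.8% and 30.5% of genes in 9 libraries and 40.6% and 34.7% in 8. KIF24, which shortens microtubules at centrioles, had -1.45, from 4.32 to 4.48 FPKM in vehicle to 1.44 to 1.83. KIFC2 had 1.18, from 5.72 to 6.57 FPKM to 13.5 to 14.3, and the light chain KLC4 had 1.001, just past the threshold. KIF16B (0.75), KIF13A (0.65) and KIFAP3 (0.63) were higher by adjusted p alone. Under rimonabant 0 of 19 passed the rule with edgeR, TMM scaling or DESeq2, 10 had an unadjusted p under 0.05 (55.6% of all genes in 9 libraries and 53.7% in 8), and the median was 0.13. Without the libraries that stood apart 1 fell and 2 rose under TXX-1-10 and 0 passed under rimonabant. By the rule 1.13% of all genes changed under rimonabant in 9 libraries and 1.49% in 8. By adjusted p alone 2 of the 19 were lower and 8 higher under rimonabant. Of all genes 25.2% were lower in 9 libraries and 22.8% in 8, and 23.7% were higher in both fits.

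The minus-end motor dynein and its cofactor dynactin gave 0 changed genes of 21 in any comparison with edgeR, TMM scaling or DESeq2. Of these 21, 17 had an unadjusted p under 0.05 for TXX-1-10 against vehicle, 10 for rimonabant against vehicle and 9 between the compounds, where 5.93% of genes passed the rule in 9 libraries and 6.41% in 8. The shares of all genes with an unadjusted p under 0.05 in 9 and 8 libraries were 76.2% and 76.8% for TXX-1-10 against vehicle, 55.6% and 53.7% for rimonabant against vehicle, and 67.5% and 64.7% between the compounds. The counts of changed genes stayed at 0 without the libraries that stood apart. By the rule 11.8% of all genes changed under TXX-1-10 in 9 libraries and 12.7% in 8, and under rimonabant 1.13% and 1.49%. Under TXX-1-10 10 of the 21 were lower and 7 higher by adjusted p. For all genes these shares were 43.8% and 30.5% in 9 libraries and 40.6% and 34.7% in 8. The heavy chain DYNC1H1 had -0.92 under TXX-1-10 and -0.75 under rimonabant, with 16.5 to 26.6 and 18.7 to 31.4 FPKM against 41.9 to 43.6 in vehicle. The lowest value under each compound was that of the library that stood apart by its length trend, and the part of this trend in the value was not tested. The dynein regulator NDEL1 had 0.73 under TXX-1-10 and the light chain DYNLT3 0.72.

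The transcription factors and pocket proteins known to act on late cell cycle promoters were listed as 19 genes, of which 17 were tested. Under TXX-1-10 4 fell and 0 rose, against 7.60% and 4.20% of all genes in 9 libraries and 7.39% and 5.28% in 8, with a median of -0.77. They were MYBL2 (-1.92), the pocket protein RBL1 (-1.74), E2F1 (-1.30) and TFDP1, a partner of E2F1 (-1.06). MYBL2, an activator that binds the MuvB complex, went from 56.8 to 59.5 FPKM in vehicle to 14.8 to 15.98. With TMM, DESeq2 or a length correction TFDP1 missed the fold threshold and 3 fell. FOXM1, an activator of G2/M genes, had -0.97 (adjusted p = 3.89e-08 by edgeR) and LIN9, a MuvB subunit, -0.84. Under rimonabant 0 of 17 passed the rule with edgeR, TMM scaling or DESeq2, against 1.13% of all genes in 9 libraries and 1.49% in 8. An unadjusted p under 0.05 was reached by 10 of the 17, and by 55.6% of all genes in 9 libraries and 53.7% in 8. E2F1 was higher under rimonabant (0.57, adjusted p = 0.000415 by edgeR). Without the libraries that stood apart the counts were again 4 and 0. MYBL2 had -0.08 under rimonabant (adjusted p = 0.224). The part of these factors in the kinesin levels was not tested.

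The genes outside these lists whose pattern was most like the mean of the 7 kinesins were found by Pearson correlation of log2(FPKM + 1) over the 9 libraries. They were CCDC80 (r = 0.9992), AOX1 (0.9989), NUCKS1 (0.9986), LMNB2 (0.9984) and LBR (0.9983). CCDC80 is a matrix-associated protein, AOX1 an aldehyde oxidase, NUCKS1 a chromatin protein, LMNB2 a lamin of the nuclear envelope and LBR the lamin B receptor. CCDC80 had 14.1, 14.01 and 13.6 FPKM in vehicle, 10.1, 10.7 and 10.5 with rimonabant and 3.79, 3.73 and 3.87 under TXX-1-10. The kinesins themselves had r of 0.9778 (KIF20A) to 0.9973 (KIF23) with this mean, of which each is a part. Of 4173 genes compared, 225 (5.39%) had r of at least 0.98. The 9 points fall into 3 treatments and share library totals, so these values mainly describe the relative spacing of group means and have no test. They do not measure the size of a change. AOX1 had 43.9, 43.6 and 42.1 FPKM in vehicle and 21.5, 21.1 and 21.2 under TXX-1-10.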

How the data were processed

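The data are 9 RNA-seq libraries, 3 each for vehicle, rimonabant and TXX-1-10, grouped by their labels. Oligo(dT)-selected RNA was made into NEBNext Ultra libraries, and the submitters' processing notes name HISAT2 2.0.5 and featureCounts 1.5.0-p3. The authors deposited raw whole-number counts of reads per gene. The FPKM values, also deposited, are the count divided by exon length and a library total, which was recovered from these columns and used as library size. Coordinates and exon lengths of all 10 kinesins match GENCODE 29 (GRCh38). The lists as used here end partway, so many genes of low or moderate count are not analysed here. The shortest lists held 4237 genes (rimonabant replicate 1) and 9397 genes (vehicle replicate 2). A gene missing from the first could not enter the 9-library fit, and one missing from the second entered neither fit. HMMR, with 302 and 325 counts in vehicle replicates 1 and 3, was lost in this way. The effect of this selection on the shares of all genes was not tested. No column of sample values was left unused.

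Tests covered genes whose mean FPKM reached 1 and used edgeR 4.0.16 in R 4.3.3 (estimateDisp, glmQLFit, glmQLFTest), in a single fit of 3 groups with the fold and p thresholds of the study. KIF4A, KIF15, KIF18A and other genes absent from rimonabant replicate 1 came from the same test on 8 libraries. The common biological coefficient of variation was 0.0696. Standard errors derive from the F statistic and are approximate. On counts simulated for the 4236 genes of TXX-1-10 against vehicle, 200 of 200 genes changed 3-fold were recovered with 0 false calls. The simulation gave every gene the common coefficient of 0.0696, with no length trend and no library that stood apart. It therefore checks the working of the fit and not the error rate in these data. Alternatives used limma 3.58.1, DESeq2 1.42.0, TMM, other FPKM minimums, a pseudocount of 0.1 or 1, removal of a lowess trend (span 0.3) on gene length, the replicate block and left-out libraries. Replicate pairs differed by more than sampling noise (chi-square per degree of freedom 2.29 to 42.2).

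The 10 members and the lists were chosen with earlier results of these data known. The text names the members, per list the genes with the largest changes under TXX-1-10 and partners of a member, and the 5 genes of most similar pattern. KIFBP is listed as KIF1BP. Promoter windows of 300 bases are from RefSeq.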

Additional observations from a re-analysis of the deposited data

How the results depend on the processing

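All 10 kinesins kept a negative log2 fold change in each comparison under the 21 alternatives run for single genes, and the count changed under TXX-1-10 against vehicle stayed at 10. The median of that comparison, -1.90 as reported, was -1.80 with TMM factors and with DESeq2 (-1.8035 and -1.8020), -1.74 with limma on log2(FPKM + 1), a scale that understates low genes, and -1.81 with the length trend removed, with or without the replicate block (-1.8086 and -1.8082). TMM and DESeq2 moved the median of all genes by 0.10 there. Dropping the fold threshold took the rimonabant count from 1 to 10, where 25.2% of all genes were lower in 9 libraries and 22.8% in 8. This count by adjusted p alone was 9, without KIF11, with TMM factors or with the replicate block. It was 8 without vehicle replicate 1. Between the compounds the median was -1.37 with limma on log2(FPKM + 1), and KIF22 reached -0.99 with the length trend removed, again with or without the block, which left 8 of 10. Leaving out single libraries gave medians of -1.9425 to -1.8548, -0.4102 to -0.3646 and -1.5892 to -1.5263 for TXX-1-10 against vehicle, rimonabant against vehicle and TXX-1-10 against rimonabant. With the replicate block alone the counts in the same order were 10, 1 and 9, with medians of -1.90, -0.39 and -1.55. Deviations of same-numbered samples had correlations of -0.79 to 0.83, and a sample correlated best with its own number in 4 of 18 cases. These values cannot decide whether the numbers pair the samples, because rimonabant and TXX-1-10 each hold a library that stood apart by its length trend. Genes missing from the shorter lists, equal doses and strand use limit what can be compared.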
